A study of Mus musculus with 6 samples.

Results

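The genes described here are those of the MHC class II pathway, measured in long-term haematopoietic stem cells from the bone marrow of Irf8 knockout and wildtype mice. Members were all probe sets that name a single gene among 9 listed genes: the class II chains H2-Aa, H2-Ab1 and H2-Eb1, the invariant chain Cd74, the transactivator Ciita, and the peptide-loading genes H2-DMa, H2-DMb1, H2-Oa and H2-Ob. The rule found 16 probe sets, of 45037 in the table, for 8 of the 9 genes, of 18193 genes measured. H2-DMb1 had no probe set of its own, and its 2 shared ones are given separately below. The study placed RNA of sorted cells on Affymetrix mouse arrays, with 3 arrays of Irf8 knockout cells and 3 arrays of wildtype cells, 1 array per biological replicate. Both groups were labelled as 3 weeks and untreated, and the cells were sorted as lineage-negative, Sca-1, c-kit and CD150 positive and CD48 negative. The labels name no strain, sex, Irf8 allele or number of animals per replicate, so p-values measure the spread between these samples only.

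MHC class II molecules display peptides from the endosomal pathway to CD4 T cells and are best known on B cells, dendritic cells and macrophages, although haematopoietic stem and progenitor cells have also been reported to carry them. An alpha and a beta chain pair in the endoplasmic reticulum with the invariant chain, whose remnant blocks the groove until H2-DM releases it and H2-O restrains H2-DM. Ciita binds no DNA itself and switches the genes on through the RFX, CREB and NF-Y factors bound to the X and Y boxes of their promoters. Irf8 is a transcription factor needed for dendritic cell and monocyte development.

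The promoter stretches shown here each hold a Y box match, and those of H2-Eb1, H2-DMb1 and H2-Ob also an X box core match. Stretches are shown for the listed genes with a promoter entry, except H2-DMa, whose matches lie farther from the start than the bases shown. Sequences are the 150 bases before the RefSeq start of the gene, build GRCm38.p6, 5′ to 3′ on the gene's strand, with matches in capitals. Of the 9 listed genes 6 had an entry in the promoter table used, and H2-Ab1, Cd74 and Ciita are named only.
H2-Eb1 (chr17:34305717-34305866, plus strand): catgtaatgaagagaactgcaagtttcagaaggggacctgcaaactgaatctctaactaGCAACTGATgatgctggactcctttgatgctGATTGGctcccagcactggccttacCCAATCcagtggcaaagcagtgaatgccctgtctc
H2-DMb1 (chr17:34153041-34153190, plus strand): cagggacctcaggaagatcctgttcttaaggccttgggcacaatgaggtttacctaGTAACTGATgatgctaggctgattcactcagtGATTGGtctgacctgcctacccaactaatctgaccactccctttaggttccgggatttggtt
H2-Ob (chr17:34238755-34238904, plus strand): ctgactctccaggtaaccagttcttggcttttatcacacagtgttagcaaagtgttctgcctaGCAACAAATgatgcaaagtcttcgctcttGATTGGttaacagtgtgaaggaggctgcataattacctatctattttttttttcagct
H2-Aa (chr17:34287824-34287973, minus strand): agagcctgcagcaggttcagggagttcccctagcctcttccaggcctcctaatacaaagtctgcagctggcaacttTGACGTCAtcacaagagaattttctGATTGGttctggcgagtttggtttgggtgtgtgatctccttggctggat
H2-Oa (chr17:34092229-34092378, plus strand): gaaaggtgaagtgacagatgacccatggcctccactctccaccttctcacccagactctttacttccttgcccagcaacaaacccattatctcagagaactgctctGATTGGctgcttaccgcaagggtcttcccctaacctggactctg

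The motifs searched on both strands of the 250 bases before each start were GNAACNNAT for the core of the X box, GATTGG for the Y box and TGACGTCA for the cAMP response element, and no match of one overlapped another. H2-Eb1, H2-DMb1 and H2-Ob held the X box core, at 91, 94 and 87 bases before the start, with a Y box 31, 32 and 29 bases further on. H2-DMa held the X box core in 1 of its 2 entries, at 227 bases and without a Y box in that entry. All 6 genes held a Y box in at least 1 promoter entry, and H2-DMa held it in its other entry, at 199 bases before the start. H2-Eb1 also held a Y box on the opposite strand at 35 bases, and H2-Aa held a cAMP response element at 74 bases. Over 32851 promoter entries of the same length 6.76% held the X box core, 14.6% the Y box, 1.24% both and 1.55% the cAMP response element. The letters of the X box core were set after the sequences were seen, so its shares are not an independent reference. These shares count entries, while the members are counted by gene and H2-DMa has 2 entries. A match describes letters in the window and is not a measured binding site, and a missing match does not show that a box is absent.

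Irf8, the targeted gene, did not separate the groups. Its brighter probe set read 4.91, 6.39 and 6.50 (log2 signal, as are all values below) in the knockout arrays, against 4.98, 6.43 and 5.16 in the wildtype arrays. No source says where its probes lie relative to the deleted part, so it checks no label, and directions refer to the arrays as labelled. Of the 18 long-term stem cell markers listed, 16 were measured, and 15 of these had a mean signal above 6.37. That level, the 90th percentile of 26 genes of other organs such as liver and pancreas, served as a guide to background. Of all 18193 genes, 7875 had a mean above it. Single arrays lay under it for some of the markers. Slamf1, which encodes the sort marker CD150, read 4.71 in knockout replicate 3 and 5.97 in wildtype replicate 1. Knockout replicate 3 stood apart from the others. Its mean correlation with the other arrays was 0.845, where the other 5 arrays had 0.873 to 0.893, and its stem cell markers lay a median of 1.33 under the wildtype mean, against 0.42 above it in knockout replicate 1 and 0.24 under it in knockout replicate 2. Xist, which marks female cells, read 10.62, 3.34 and 3.81 in knockout and 7.60, 3.36 and 11.21 in wildtype, so both groups mixed high and low arrays. Differences of members and medians of lists that turn in sign or move by over 1.5 times without knockout replicate 3 are also given without it.

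No class II pathway gene passed the test. H2-Eb1 had the difference farthest from 0 of the 8 member genes, each read from its brightest probe set. A slightly dimmer probe set of H2-Aa, 1435290_x_at, differed by -2.59, with overlap. The knockout arrays read below the wildtype arrays without overlap for H2-Eb1 and H2-DMa, for 1 further probe set of H2-Aa and for 1 probe set shared by H2-DMb1 and H2-DMb2. The probe sets that stand for H2-Aa, H2-Ab1, Cd74, Ciita, H2-Oa and H2-Ob overlapped between genotypes. In limma, with Benjamini-Hochberg adjustment over 18193 genes, 0 of the 8 member genes passed a threshold of 0.05, as did 0 of all genes (0%). At an unadjusted p under 0.05 there was 1 member, where 880 of all genes (4.84%) reached it. Knockout was below wildtype without overlap in 2 of 8 members, against 4.25% of all genes, and above it without overlap in 0, against 6.67%. Over the 8 members the median difference was -0.74, with 5 of them below 0 (against 43.4% of all genes), while over all genes it was 0.07. Without knockout replicate 3 the median was -0.22. With only probe sets whose identifiers do not mark them as open to cross-hybridisation it was 0.036 over 7 genes. In that setting H2-Aa dropped out and H2-Ab1 turned from -1.02 to 0.85, read from another probe set. The plot of signals by array shows the gap of H2-Eb1 beside the overlap of Cd74 and H2-Oa.

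**Figure D1:**
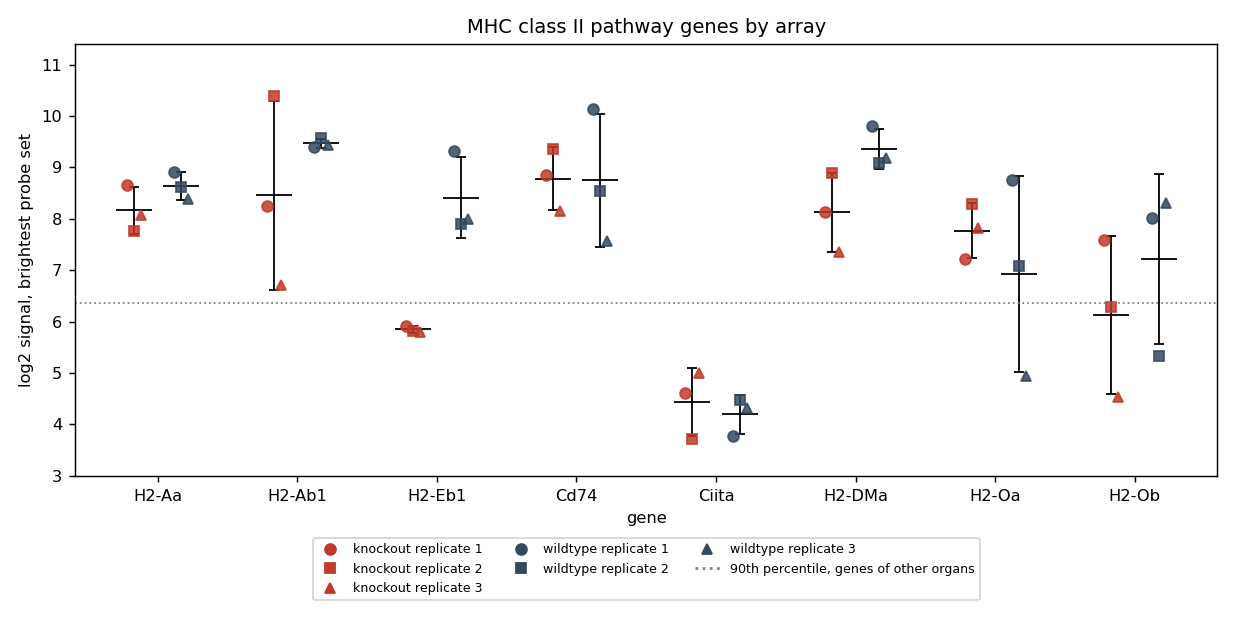
Log2 signal (vertical axis) of the brightest single-gene probe set of each of the 8 measured MHC class II pathway genes (horizontal axis), 1 point per array, knockout in red left of wildtype in dark blue, with marker shape giving the replicate. Horizontal bars are group means with SD (n = 3 each) and the dotted line is 6.37. H2-Eb1 is the gene whose 3 knockout points, 5.79 to 5.92, lie far under its 3 wildtype points, 7.91 to 9.32.

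H2-Eb1 encodes the beta chain of the I-E molecule. Its single probe set, 1417025_at, read 5.92, 5.83 and 5.79 in the knockout arrays, against 9.32, 7.91 and 8.0 in the wildtype arrays. The 3 knockout values sat within 0.13 of each other and under the guide to background of 6.37, and all 3 wildtype values lay above that guide. Of all genes 97.2% had a wider range within knockout. The means were 5.85 ± 0.07 in knockout and 8.41 ± 0.79 in wildtype (SD, n = 3 each), a log2 difference of -2.56 (SE 0.55, limma 95% interval -3.88 to -1.24). Since the knockout signals lie under the guide to background, no fold is given for it. Its unadjusted p was 0.00263 and its adjusted p was 0.887 in limma over all genes, so the difference did not pass. With any single array left out the difference lay between -2.81 and -2.11, and it was nearest to 0 without wildtype replicate 1. In wildtype replicate 1, which had the highest H2-Eb1 signal, the 14 monocyte and macrophage markers measured lay at a median of -0.04 relative to the wildtype mean. Among them C1qb (6.94) and C1qc (5.39) were highest in that array, while C1qa (4.34) and Csf1r (3.22) were lowest there. The part of such cells in the H2-Eb1 values was not tested. In bulk RNA of this kind, fewer cells of a type and less RNA per cell cannot be told apart.

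H2-Ea, the alpha chain partner of H2-Eb1, is annotated as a transcribed pseudogene in the RefSeq table. Its 3 probe sets read between 2.26 and 4.77 in knockout and between 2.08 and 4.94 in wildtype, all under the guide to background. H2-Eb2, a related beta chain gene, likewise read 3.47 to 4.87 in knockout and 3.69 to 4.19 in wildtype.

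H2-Aa, the alpha chain of the I-A molecule, had 4 probe sets, all below 0 in the knockout minus wildtype difference but by very different amounts. The one that stands for the gene, 1438858_x_at, read 8.66, 7.76 and 8.08 in knockout and 8.91, 8.62 and 8.38 in wildtype, a difference of -0.47 (SE 0.50, 95% interval -1.65 to 0.71). The groups overlapped through knockout replicate 1, which lay above wildtype replicates 2 and 3. Probe set 1435290_x_at read 8.88, 7.71 and 4.48 in knockout and 10.30, 9.98 and 8.55 in wildtype, a difference of -2.59 (SE 1.19 in the fit over all probe sets). Its lowest value was in knockout replicate 3, and without that array the difference was -1.31. Probe set 1452431_s_at read 5.30, 5.50 and 5.12 in knockout and 5.65, 6.40 and 6.26 in wildtype, without overlap, a difference of -0.80 (SE 0.40). The fourth, 1443783_x_at, read 2.01 to 2.37 in knockout and 2.03 to 2.61 in wildtype, and so was near the bottom of the scale in every array. Its difference was -0.02 (SE 0.19), and -0.06 without knockout replicate 3. With the mean of the 4 probe sets H2-Aa differed by -0.97 and the groups did not overlap.

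H2-Ab1, the beta chain of I-A, had probe sets that moved in opposite directions in the same array. The brightest, 1450648_s_at, read 8.25, 10.39 and 6.72 in knockout, around the tight wildtype values of 9.40, 9.57 and 9.44. Probe sets 1451721_a_at and 1425477_x_at read 8.83 and 7.65 in knockout replicate 3, where the brightest was at its lowest. In the other 5 arrays those probe sets read 5.23 to 6.37 and 4.96 to 5.99. Over the 6 arrays the brightest correlated with them at r = -0.79 and -0.82, while they correlated with each other at 0.99, as a description of arrays in which knockout replicate 3 is the extreme point. The difference of the brightest was -1.02 (SE 0.91), and those of the others were 0.85 (SE 1.00) and 0.53 (SE 0.79), so no direction can be given for H2-Ab1. Without knockout replicate 3 these 3 differences were -0.15, -0.28 and -0.31. H2 genes differ in sequence between mouse strains and the labels give no H2 haplotype, so the signals of all H2 probe sets here may depend on the allele as well as the RNA level, which was not tested.

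**Figure D2:**
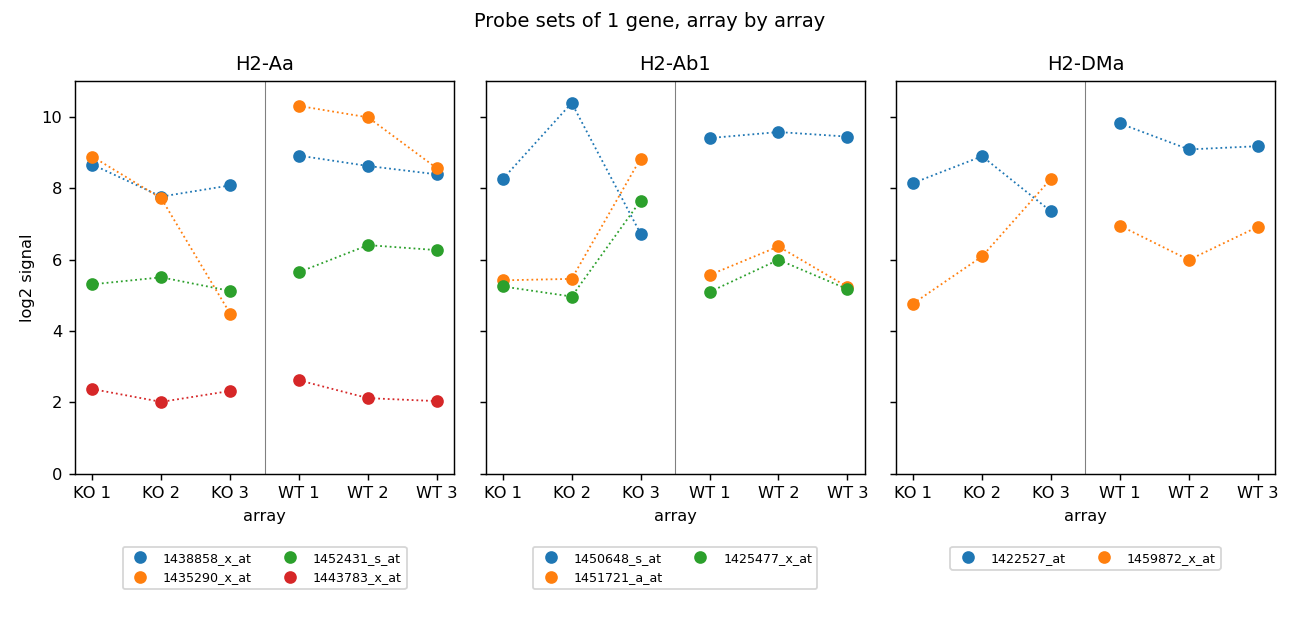
Log2 signal (vertical axis) of every single-gene probe set of H2-Aa, H2-Ab1 and H2-DMa (panels) in each array (horizontal axis, KO for knockout and WT for wildtype, with the replicate number). Colours mark probe sets and dotted lines only join the points of 1 probe set within a genotype. In KO 3 the H2-Ab1 probe sets cross, with 1450648_s_at at 6.72 and 1451721_a_at at 8.83.

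Cd74, the invariant chain, has a part in every class II molecule and did not separate the genotypes. It read 8.86, 9.35 and 8.14 in knockout and 10.13, 8.54 and 7.57 in wildtype. The knockout values lay inside the range of the wildtype values, and 9.89% of all genes had a wider range than Cd74 within wildtype. The difference was 0.04 (SE 0.76, 95% interval -1.77 to 1.84), so the interval spans signals from 0.294 to 3.58 times that of wildtype. Leaving out wildtype replicate 1 gave 0.73, leaving out wildtype replicate 3 gave -0.55, and leaving out knockout replicate 3 gave 0.36.

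Ciita, which sets the transcription of the other members, read under the guide to background of 6.37 in all 3 of its probe sets and all 6 arrays. The brightest, 1421210_at, read 4.61, 3.71 and 5.01 in knockout and 3.78, 4.48 and 4.33 in wildtype, a difference of 0.25 (SE 0.38). The others, 1421211_a_at and 1447075_at, differed by -0.07 (SE 0.35) and -0.15 (SE 0.23). Without knockout replicate 3 the 3 differences were -0.037, -0.27 and -0.25. A lower level of Ciita in knockout may not be detectable at this signal, since the wildtype values already lay under the guide to background.

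H2-DMa, the alpha chain of the peptide exchange factor H2-DM, read 8.14, 8.89 and 7.35 in the knockout arrays, against 9.81, 9.08 and 9.17 in the wildtype arrays, for its brighter probe set 1422527_at. All 3 knockout values lay under all 3 wildtype values, with 0.19 between the nearest. The difference was -1.23 (SE 0.57, 95% interval -2.58 to 0.12), and in limma the unadjusted p was 0.0684 (adjusted p 0.887). It was -0.84 without knockout replicate 3. With the mean of its 2 probe sets H2-DMa differed by -0.74 and the groups overlapped. The other probe set, 1459872_x_at, read 4.77, 6.09 and 8.26 in knockout and 6.95, 5.99 and 6.92 in wildtype, with a difference of -0.25 (SE 0.93), and -1.19 without knockout replicate 3. In knockout replicate 3 the brighter probe set was at its lowest of the 6 arrays and the dimmer one at its highest.

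The partner of H2-DMa is encoded by H2-DMb1 and H2-DMb2, which share probe sets. Probe set 1418638_at names both and read 4.34, 4.28 and 4.90 in knockout, against 5.93, 7.03 and 6.70 in wildtype. The groups did not overlap, and the difference was -2.05 (SE 0.44; unadjusted p 0.00302 and adjusted p 0.907 in limma over all probe sets). The other shared probe set, 1449580_s_at, read 5.52, 6.27 and 6.46 in knockout and 8.32, 6.14 and 5.84 in wildtype, with overlap and a difference of -0.69 (SE 0.77). Of the 3 probe sets that name H2-DMb2 alone, 1443686_at and 1443687_x_at read 6.80 and 7.08 in knockout replicate 2, against at most 3.68 in any other array. The third, 1419744_at, read 4.07 to 4.49 in knockout and 4.23 to 4.43 in wildtype.

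H2-Oa and H2-Ob encode the chains of H2-O, the inhibitor of H2-DM, and H2-Oa varied widely within wildtype and H2-Ob within both genotypes. H2-Oa read 7.22, 8.28 and 7.82 in knockout and 8.75, 7.09 and 4.95 in wildtype, a difference of 0.84 (SE 0.98). Its value turned to -0.15 without wildtype replicate 3, and only 2.69% of all genes had a wider wildtype range. H2-Ob read 7.59, 6.28 and 4.53 in knockout and 8.01, 5.32 and 8.31 in wildtype, a difference of -1.09 (SE 1.07). Leaving out knockout replicate 3 gave -0.29, and leaving out wildtype replicate 2 gave -2.03. A further probe set shared by H2-Ob and Gm20506 read 5.49 to 6.78 in knockout and 5.09 to 6.03 in wildtype. Between H2-Oa and H2-Ob r was -0.31 over the 6 arrays, which share their libraries. So few arrays cannot show whether the chains of H2-O follow each other.

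Probe set by probe set, 11 of 16 differences lay below 0, against 43.3% of all probe sets. In the fit over all 45037 probe sets 0 members passed after adjustment, as did 0 of all (0%), and 1 had an unadjusted p under 0.05 in limma, against 4.7% of all. Knockout lay below wildtype without overlap in 3 of the 16, those of H2-Eb1, H2-DMa and H2-Aa, against 4.23% of all probe sets, and above it in 0, against 6.66%. Of the 16, 7 have identifiers that mark them as open to hybridisation with related sequences. They are all 4 probe sets of H2-Aa, 2 of H2-Ab1 and 1 of H2-DMa, and the probe set of H2-Eb1 is not among them.

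**Figure D3:**
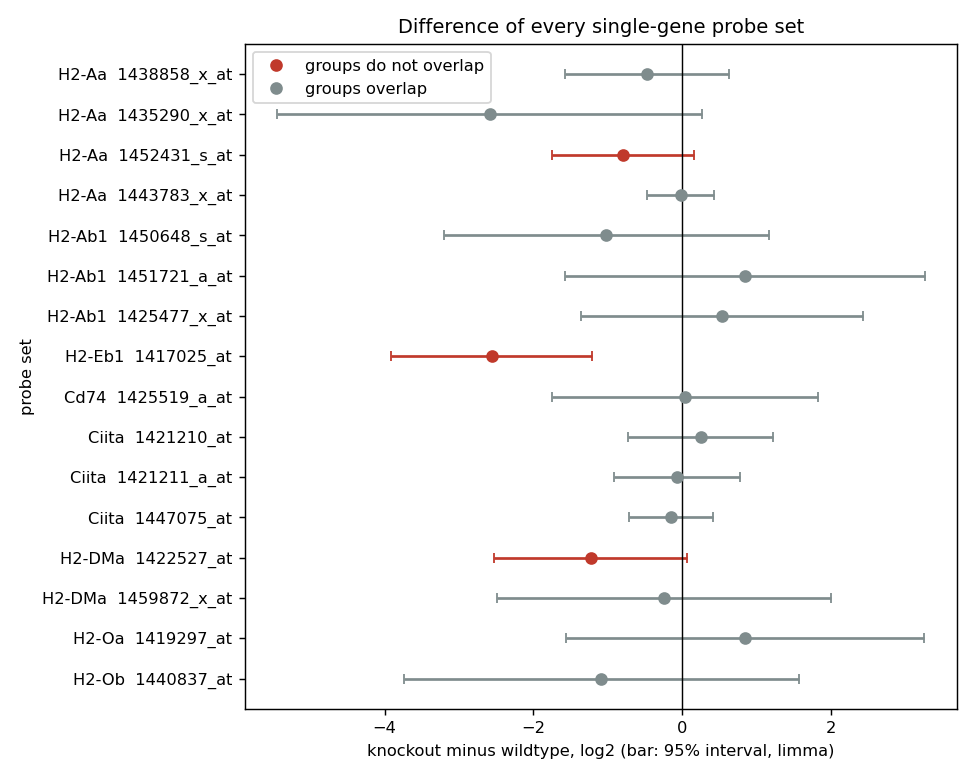
Knockout minus wildtype difference in log2 signal (horizontal axis) for each of the 16 single-gene probe sets (vertical axis), with the limma 95% interval as a bar (n = 3 each). Red marks the probe sets whose groups do not overlap. The interval of H2-Eb1, -3.91 to -1.22 in this fit, is the 1 interval that leaves out 0.

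Array by array, the brightest probe sets were highest in wildtype replicate 1 for 5 of the 8 genes (H2-Aa, H2-Eb1, Cd74, H2-DMa and H2-Oa). They were lowest in knockout replicate 3 for 4 (H2-Ab1, H2-Eb1, H2-DMa and H2-Ob). The dimmer probe sets of H2-Ab1 (8.83 and 7.65) and H2-DMa (8.26) were at their highest in knockout replicate 3. No share of all genes was computed for these counts, so they carry no result about the members. Summed over the 8 genes, the log2 signal was 10.88, 11.62 and 10.18 in knockout and 12.14, 11.29 and 11.24 in wildtype. Knockout replicate 2 lay above wildtype replicates 2 and 3, so the sums overlapped. Between brightest probe sets, H2-DMa varied with H2-Eb1 and with H2-Ab1 (r = 0.83 each), and Cd74 with H2-Oa (r = 0.84). Ciita, under the guide to background in every array, had a negative r with H2-Ab1 (-0.85), H2-DMa (-0.80) and Cd74 (-0.69). The values for H2-Ab1 were read from 1450648_s_at alone. Its other probe sets correlated with that one at -0.79 and -0.82. H2-Eb1 and Cd74 were only weakly related (r = 0.26). Each r describes the same 6 arrays, with genotype included. Among 6863 other genes that were brighter and more variable than the median gene, those closest to the mean of H2-Aa, H2-Ab1, H2-Eb1 and Cd74 over the 6 arrays were Prune1 (r = 0.990), Efcab2 (0.987), Edem2 (0.981), Atp11b (0.976) and C1galt1 (0.975). With so many genes and 6 arrays, such high values can arise by chance, so they only describe these arrays. The genes averaged were not all alike, with r = -0.01 for H2-Aa and H2-Ab1.

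The factors that bind class II promoters and the genes that act on Ciita or its inducing signal did not pass in any case. Of 9 promoter factors measured, 6 had differences below 0 (against 43.4% of all genes) and 3 above, with a median of -0.53. Rfxank, a subunit of the RFX complex, read 5.60, 5.89 and 5.95 in knockout and 5.99, 7.58 and 6.14 in wildtype, without overlap, a difference of -0.76 (SE 0.53). Of its values only that of wildtype replicate 2 lay above the guide to background. Creb1 differed by -1.11 (SE 0.65). Without knockout replicate 3, whose median was 1.01 under the wildtype mean, the median of the list was 0.15. Of 10 regulators of Ciita measured, 7 had differences above 0 (against 10293 of all 18193 genes), with a median of 0.21. The list mixes directions of action, since the 7 include Prdm1, a repressor of Ciita, at 0.09 (SE 0.26), and Socs1, a feedback inhibitor of interferon signalling. Socs1 read 5.72, 5.36 and 5.30 in knockout and 4.27, 4.34 and 4.76 in wildtype, a difference of 1.00 (SE 0.27). Those values all lay under the guide to background. The kinase Jak1 differed by 0.75 (SE 0.51).

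Among genes that cut, reduce and turn over class II cargo, 14 were measured and 9 had differences below 0 (against 43.4% of all genes), with a median of -0.39. In 3 of them knockout was below wildtype without overlap (against 4.25% of all genes), and in 0 above it (against 6.67%). Ctsh, the protease cathepsin H, read 4.46, 6.23 and 5.08 in knockout and 6.46, 8.0 and 6.32 in wildtype, a difference of -1.67 (SE 0.66). Ctsl, cathepsin L, which degrades the invariant chain in the thymus, read 7.10, 5.89 and 4.87 in knockout and 7.43, 7.51 and 7.63 in wildtype, a difference of -1.57 (SE 0.64). Neither passed after adjustment (adjusted p = 0.887 each in limma), and 2 members of this list had an unadjusted p under 0.05 (against 4.84% of all genes). The list's median was -0.09 without wildtype replicate 1. The 7 costimulation genes had a median of 0.14, and 0.091 without knockout replicate 3, with Cd86 at 0.58 (SE 0.67) and Cd83 at 0.24 (SE 0.27).

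Of the markers of cell types best known for class II, few had a mean signal over the 6 arrays above 6.37, although single arrays read far above it for some genes. Of 14 B cell markers measured, 2 had such a mean, Cd79b at a difference of -1.41 (SE 0.71) and Cd72 at 0.68 (SE 0.72). Fcrla differed by 1.24 (SE 0.96) and reached 8.18 in knockout replicate 2, while Ms4a1 (CD20), Pax5 and Cd22 read at most 5.11 in knockout and 5.23 in wildtype. The list had a median of 0.03, and -0.17 without knockout replicate 3, and its summed log2 signals were 9.17 to 10.15 in knockout and 9.55 to 10.28 in wildtype. Of 13 dendritic cell markers 2 had a mean above 6.37, Flt3 and Cd24a, which progenitors also express. Flt3 read 7.99, 8.56 and 10.55 in knockout and 6.93, 6.19 and 6.63 in wildtype, a difference of 2.45 (SE 0.77), and Itgax differed by 0.43 (SE 0.22). Of the 13, 2 had differences below 0 (against 43.4% of all genes) and 4 were higher in knockout without overlap (against 6.67% of all genes). Among those 4 only Flt3 had a mean above 6.37. The list had a median of 0.19, and 0.021 without knockout replicate 3. Its summed signals, in which the bright Cd24a weighs most, were 12.31 to 12.92 in knockout and 12.38 to 12.82 in wildtype. Of 14 monocyte and macrophage markers 1, Cd68, had a mean above 6.37. Csf1r, the receptor for macrophage colony-stimulating factor, read 3.40, 9.82 and 3.78 in knockout and 3.22, 8.26 and 6.10 in wildtype. Cx3cr1 read 4.30 to 4.54 in knockout and 4.36 to 8.84 in wildtype, with its highest value in wildtype replicate 2. Cd14 differed by 0.57 (SE 0.23) and Ccr2 by -1.03 (SE 0.47). The list had a median of 0.12, and 0.077 without knockout replicate 3, with summed signals of 9.03 to 10.84 in knockout and 9.40 to 10.45 in wildtype. The part of such cells in the class II values was not tested.

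Of 12 neutrophil markers measured, 11 had differences above 0 (against 10293 of all 18193 genes). Of the 12, 5 were higher in knockout without overlap (against 6.67% of all genes). The summed log2 signal of the 12, in which bright genes weigh most, was 14.32, 14.15 and 15.81 in knockout and 12.72, 13.03 and 12.54 in wildtype. It was highest in knockout replicate 3, the array with the lowest summed class II signal. S100a9 differed by 2.01 (SE 0.34) and S100a8 by 2.12 (SE 0.40). Other markers overlapped between genotypes, such as Ltf, at 4.48 in knockout replicate 2 against 4.48 to 5.08 in wildtype, and Csf3r, which differed by -0.26 (SE 0.60). The list's median was 2.43, and 1.53 without knockout replicate 3, and the part of such cells in the class II differences was not tested. T, NK and innate lymphoid cell markers had 0 of 9 genes above 6.37 and a median of -0.04, or -0.066 without knockout replicate 3, with Ncr1 at a difference of 0.42 (SE 0.19) and Cd3d at 0.42 (SE 0.34). Stromal and endothelial markers had a median of -0.07, and -0.24 without knockout replicate 3, with Emcn at -1.59 (SE 0.85) and Kdr at -0.29 (SE 0.24). The stem cell markers had a median of -0.29, which turned to 0.11 without knockout replicate 3, with Procr at -0.75 (SE 0.36) and Tie1 at -2.04 (SE 0.98). The 26 genes of other organs had a median of 0.15, and 0.030 without knockout replicate 3, with Cela1 at -1.28 (SE 0.67) and Pomc at 0.79 (SE 0.46). The 3 other class II genes had a median of 0.02, and -0.13 without that array. After adjustment over all genes 0 members of any of these lists passed in limma.

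**Figure D4:**
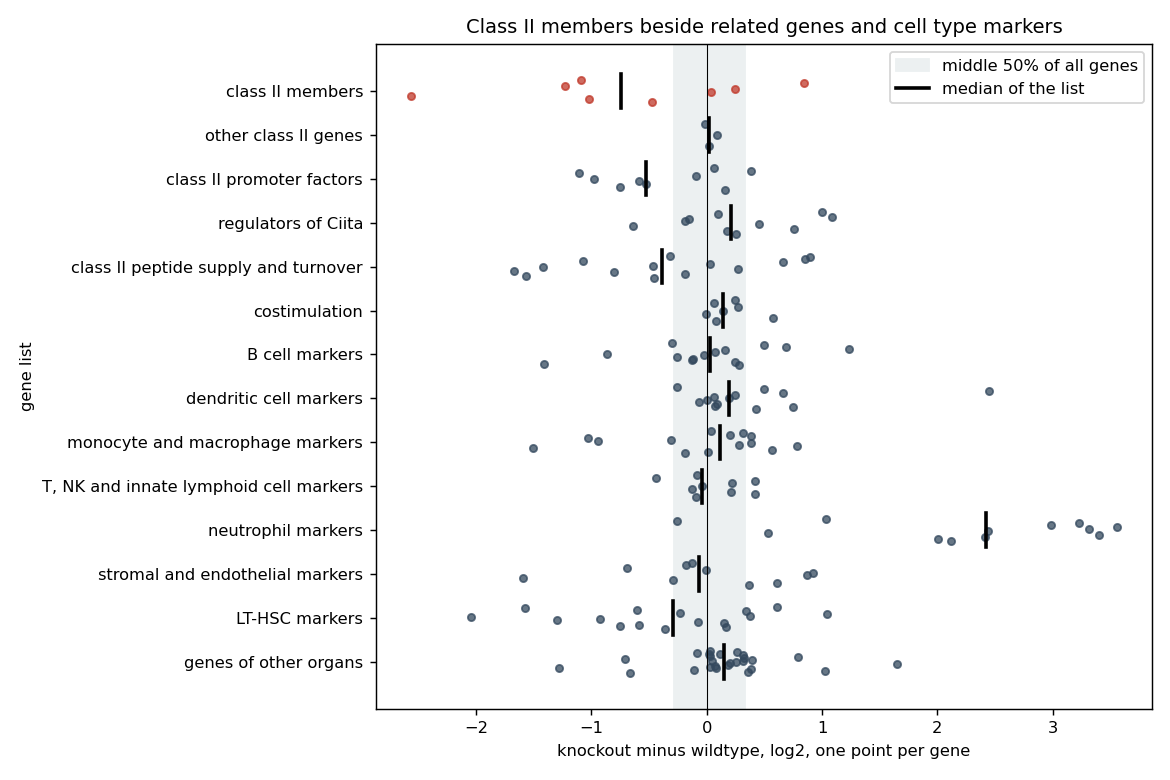
Knockout minus wildtype difference in log2 signal (horizontal axis), 1 point per gene, for the 8 class II members (red, top row) and for the other lists (vertical axis). Black bars are list medians and the grey band holds the middle 50% of 18193 genes, -0.28 to 0.33. Each gene is read from its brightest probe set. The class II median is -0.74, with H2-Eb1 at -2.56 far left of the other members, and the neutrophil median is 2.43.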

How the data were processed

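RNA of sorted cells was amplified with a whole-transcriptome kit for small amounts and labelled with biotin, per the labels' protocols. The authors deposited log2 expression values, with 1 value for each probe set on each array. Per the submitters' processing notes the tools were RMA, Partek and Affymetrix Expression Console, and their settings are unknown. RMA compresses differences of dim probe sets. The number of arrays limits the precision, with a median SE of 0.46 for a difference.

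Of 45037 probe sets 34945 named 1 gene in the platform annotation used, and the one with the highest mean stood for a gene (18193 genes). Knockout minus wildtype was fitted with lmFit and eBayes (trend on) of limma 3.58.1 in R 4.3.3, over all genes and separately over all probe sets, with Benjamini-Hochberg adjustment and a threshold of 0.05. The fit was tested on simulated data. Named genes were all members, Irf8, up to 2 per other list with the smallest unadjusted p, and the 5 most alike in pattern. C1qa, C1qb, C1qc, Csf1r, Cx3cr1, Cd68, Ms4a1, Pax5, Cd22, Cd72, Cd24a, Ltf, Csf3r, Prdm1 and Slamf1 were named after their values were seen. The letters searched for the X box core were also set after the sequences were seen. Members and lists were chosen with earlier results of these data known. Replicate numbers did not pair arrays (deviations of same-numbered arrays correlated at -0.024, -0.009 and -0.011). Python 3.11.15 and pandas 2.3.3 made tables, and matplotlib 3.10.9 made figures.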

Additional observations from a re-analysis of the deposited data

How the results depend on the processing

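Alternatives changed how the spread was moderated, the weight of each array, which probe sets stood for a gene, the lowest level kept, the scaling, a replicate block and Xist as a term, and left out each of the 6 arrays. Of 214 member differences recomputed, 16 turned in sign and 0 passed the threshold; H2-Eb1 ran from -2.81 to -2.11 over its 15. Over all genes 1 was called with the mean of probe sets and 1 with arrays centred on their median, neither a member. Members without overlap numbered 2 to 4 with an array left out. The 4 came without knockout replicate 2, with H2-Ab1, H2-Eb1 and H2-DMa lower and Ciita higher in knockout. Groups separate more easily with fewer arrays, and no share of all genes was computed for these fits, so the counts carry no result about the members. The median difference over all members ran from -0.82 to -0.22 with an array left out. Without _x_at and _s_at probe sets the median was 0.036 over 7 genes, since H2-Aa has none left and H2-Ab1 is read from 1451721_a_at. H2-Ab1 turned to 0.12 with the mean of its probe sets and 0.85 without _x_at and _s_at ones, and Cd74 to -0.036 with Xist as a term. With 1 array left out, the difference ran from -0.55 to 0.73 for Cd74, from -0.037 to 0.61 for Ciita and from -0.15 to 1.75 for H2-Oa. Among dimmer probe sets it ran from -0.27 to 0.23 for 1421211_a_at of Ciita, from -1.19 to 0.56 for 1459872_x_at of H2-DMa and from -0.13 to 0.16 for 1443783_x_at of H2-Aa. For H2-Ab1 it ran from -0.28 to 1.42 for 1451721_a_at and from -0.31 to 1.03 for 1425477_x_at. The cause was not tested. The replicate block left 0 members called, with H2-Eb1 at -2.56 (unadjusted p 0.00781 in limma), and 838 genes at an unadjusted p under 0.05, against 880 without it. Ciita read under 6.37 in every array, so a lower level of it in knockout may not show. That guide to background is not a floor, since the median gene lay at 5.81.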
